A study of Mus musculus with 20 samples.

Results

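The expression of 9 genes by which astrocytes handle glutamate, water and ions was followed in the neocortex of young and aged mice. The genes were the glutamate transporters Slc1a2 and Slc1a3, glutamine synthetase Glul, the water channel Aqp4, the potassium channel Kcnj10, the connexins Gja1 and Gjb6, the sodium pump subunit Atp1b2 and the bicarbonate transporter Slc4a4. The 9 genes are among 13351 with a tested probe set. Members were all probe sets that the array's annotation gave to one of these genes alone, which were 31 of 45037 non-control probe sets. A probe set is a group of short probes that together measure one transcript or part of it. Of the 31, 27 lay above the limit on dim signals, a mean signal of 184 that 27022 of all probe sets passed, and 4 lay below it. One more probe set was shared with another gene symbol and was only counted.

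RNA came from the neocortex of 20 male B6C3F1 mice, the first-generation hybrid of C57BL/6 and C3H parents, which were housed singly. Each of 4 groups held 5 mice, with a separate array per mouse. Young controls were aged 5 months and old controls 30 months, and neither received a supplement. Both other groups were also aged 30 months and had been fed vitamin E from 15 months of age. Their diet held either 1000 mg/kg α-tocopherol or 500 mg/kg each of α- and γ-tocopherol, called the mixture here. γ-Tocopherol is a form of vitamin E with fewer methyl groups on its chromanol ring than α-tocopherol. The series holds no supplemented young mice.

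Astrocytes take up the glutamate that neurons release, through sodium-coupled transporters, and glutamine synthetase turns it into glutamine that is handed back to neurons. The potassium, water and bicarbonate that move with neuronal activity are taken up through channels and transporters that are dense on the endfeet around blood vessels, and gap junctions spread them from cell to cell. The sodium pump maintains the sodium gradient that drives the sodium-coupled uptake of glutamate.

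Signals were linear values scaled by the submitters to the same trimmed mean of 1000 on every array, and differences are given on the scale log2(signal + 16). The median signal of an array was 316 to 331.2 in young control, 283.8 to 313.3 in old control, 280.3 to 317.7 in α-tocopherol and 292.3 to 331.5 in mixture mice. The ratio of the 3' to the 5' β-actin control probe set, a measure of RNA length, was 1.42 to 1.74 in young control and 1.73 to 2.52 in old control mice. It was 1.43 to 2.36 in α-tocopherol and 1.22 to 1.60 in mixture mice, so it was higher in old control mice than in mixture mice without overlap. The 18S ribosomal RNA control signal was 421.1 to 794.2 in young control and 1184 to 2068 in old control mice, without overlap. It was 655.3 to 2504 in α-tocopherol mice and 707.6 to 1138 in mixture mice, the latter below every old control mouse. The part of the 18S signal in the members' differences was not tested; values fitted with the β-actin covariate, this ratio as a model term, are given beside some of the results. All 12 neuronal markers of a fixed list passed the limit on dim signals in this tissue.

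In old against young control neocortex, 7 of the 27 member probe sets were higher and 1 was lower by limma with Benjamini-Hochberg adjustment over all probe sets tested. Among all probe sets, 9.33% were higher and 9.54% lower. With array medians set equal the members' split was 12 higher and 0 lower. All 27022 probe sets then split 4699 higher and 863 lower, and their median difference rose from -0.048 to 0.087. Without old control mouse 1 the members' split was 9 and 2, against 2323 and 2362 of all probe sets. Taking for each gene its probe set with the highest mean signal, called brightest here, 6 of the 9 genes were higher, against 11.7% of all 13351 genes represented in that way. A share of 9.3% of all genes was lower in that way, and 0 of the 9. The genes higher by their brightest probe set were Glul, Slc1a3, Atp1b2, Aqp4, Slc1a2 and Gja1. Of the 18 other member probe sets, 1 was higher and 1 lower. With the β-actin covariate Slc1a3 and Gja1 did not pass (limma adjusted p = 0.0716 and 0.0865). Old and young control mice did not overlap in 6 probe sets that were higher and 1 that was lower, against 7.09% and 7.19% of all probe sets. No such share was counted for supplemented against young mice. Kcnj10, Gjb6 and Slc4a4 did not pass the threshold of 0.05. The brightest probe sets of all 9 genes pointed upward, as deposited and under each of the 4 other scalings and adjustments tried. Their median difference was 0.36, against -0.022 over the brightest probe sets of all genes. The 9 had mean signals of 2125 to 20728, and signal level was not matched in this comparison. Over all probe sets the median was -0.077 with no filter on dim signals, -0.048 as tested and -0.013 for the top 40% by signal. In whole tissue, a change in the number of astrocytes cannot be told apart from a change in RNA per astrocyte.

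**Figure D1:**
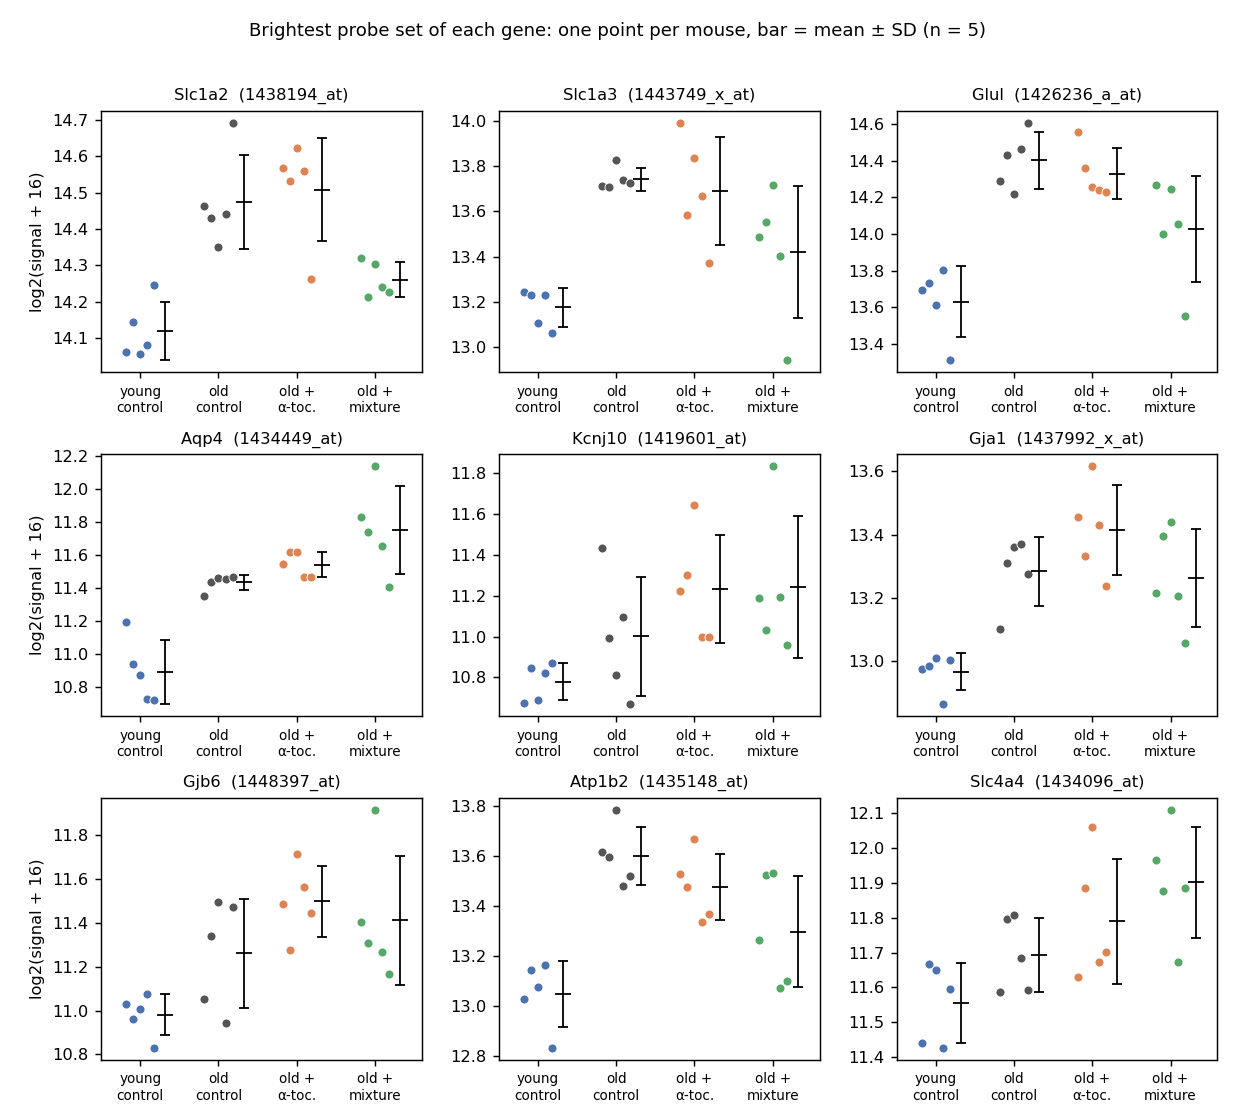
Log2(signal + 16) of the brightest probe set of each of the 9 genes, with 1 panel per gene, 1 point per mouse and bars for the mean ± SD of each group of 5; each panel has its own vertical range. For Slc1a2, Slc1a3, Glul, Aqp4, Gja1 and Atp1b2, all 5 old control mice lie above all 5 young control mice.

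The promoters of 4 of the genes whose brightest probe set was higher with age are printed here. Each is the 250 bases before the annotated start, taken from RefSeq (GRCm38.p6) and written 5′ to 3′ on the gene's own strand. They lie at chr2:102706188-102706437 for Slc1a2 on the plus strand, chr15:8710808-8711057 for Slc1a3 on the minus strand, chr1:153899679-153899928 for Glul on the plus strand and chr10:56377050-56377299 for Gja1 on the plus strand. Capitals mark matches to 4 motifs searched on both strands: the SOX core AACAAT, the NFI half-site TTGGC, the TATA box TATAAA and the CCAAT box CCAAT. SOX and NFI proteins are transcription factors of the astrocyte lineage.
Slc1a2: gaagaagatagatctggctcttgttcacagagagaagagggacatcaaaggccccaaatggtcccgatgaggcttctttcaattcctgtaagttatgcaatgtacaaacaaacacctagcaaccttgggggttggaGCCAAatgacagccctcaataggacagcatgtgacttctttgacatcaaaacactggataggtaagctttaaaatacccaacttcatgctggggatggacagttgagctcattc
Slc1a3: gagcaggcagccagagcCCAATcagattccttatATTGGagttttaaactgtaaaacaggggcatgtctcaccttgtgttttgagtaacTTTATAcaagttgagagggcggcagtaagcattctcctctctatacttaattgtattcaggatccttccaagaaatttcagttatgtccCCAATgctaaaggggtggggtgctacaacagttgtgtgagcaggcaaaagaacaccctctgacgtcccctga
Glul: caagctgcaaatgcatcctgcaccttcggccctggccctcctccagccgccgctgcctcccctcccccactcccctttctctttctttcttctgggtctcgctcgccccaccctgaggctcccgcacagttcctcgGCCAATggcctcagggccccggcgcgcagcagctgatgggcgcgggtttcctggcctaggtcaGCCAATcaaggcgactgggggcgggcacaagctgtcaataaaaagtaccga
Gja1: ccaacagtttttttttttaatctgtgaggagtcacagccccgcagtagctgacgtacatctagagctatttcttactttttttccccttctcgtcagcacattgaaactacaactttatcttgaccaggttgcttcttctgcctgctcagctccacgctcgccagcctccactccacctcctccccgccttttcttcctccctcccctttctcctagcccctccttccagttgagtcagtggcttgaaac

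Slc1a2 held an NFI half-site at position -114 from the start. Slc1a3 held a TATA box match on the minus strand at -161 and CCAAT boxes at -233, -216 and -72. Glul held NFI half-sites at -114 and -51, and both overlapped CCAAT boxes at -113 and -50. The Gja1 window held none of the 4. Windows were found for 7 of the 9 genes. None was found for Atp1b2, and the members' search left out chromosome 18, where Aqp4 lies. Of these 7 genes, 4 held an NFI half-site, 4 a CCAAT box, 1 a TATA box and 0 a SOX core, with Slc4a4 counted over its pair of starts. Among 32851 windows of the same length, 41.5% held the NFI half-site, 33.8% the CCAAT box, 12.4% the TATA box and 9.42% the SOX core. GC content was 44.8% for both Slc1a2 and Slc1a3, 64.8% for Glul and 50% for Gja1, against a median of 52.4% over all windows. A match describes letters in these windows and says nothing of binding.

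Slc1a2 encodes GLT-1, the main glutamate transporter of forebrain astrocytes. Its brightest probe set, 1438194_at, read 17082, 18089.6, 17026, 17314 and 19421 in young control mice and 22566, 22046, 20855, 22209 and 26470 in old control mice. It read 24247, 23661, 25222, 24111 and 19645 with α-tocopherol and 20454, 18955, 20188, 19321 and 19166 with the mixture. Every old control mouse was above every young mouse, and all 5 mixture mice were below all 5 old control mice while only 2 of them exceeded the highest young mouse. The log2 signal was 14.12 ± 0.080 in young and 14.47 ± 0.13 in old control mice (mean ± SD, n = 5). Old minus young was 0.36 (SE 0.069, adjusted p = 0.00159), a 1.28-fold rise by limma. After quantile normalization the difference was 0.13 and no longer passed (limma adjusted p = 0.116).

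The 3 dimmer Slc1a2 probe sets above the limit did not pass. The difference with age was 0.032 (SE 0.15) for 1439940_at, -0.12 (SE 0.13) for 1451627_a_at and -0.29 (SE 0.20) for 1459014_at, with limma adjusted p from 0.323 to 0.906. For 1439940_at the 5 young mice lay within 2406 to 2624, and the 15 old mice of the 3 groups spread from 1880.9 to 3907. For 1459014_at the young mice read 322.4, 553.4, 439.2, 316.7 and 649.7 and the old controls 329.1, 349.7, 262.7, 421.1 and 440.9, so the groups overlapped. The fifth probe set, 1433094_at, read 19 to 107.3 over all mice and was too dim to test.

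Slc1a3 encodes GLAST, the second astrocyte glutamate transporter. The brightest of its probe sets, 1443749_x_at, read 9694, 9600, 8817, 9602 and 8535 in young and 13386, 13358, 14534, 13632 and 13538 in old control mice. It read 16279, 12263, 14589, 13015 and 10574 with α-tocopherol and 11465, 12021, 13460, 10807 and 7853 with the mixture. All 10 old control and α-tocopherol mice exceeded the young mice, whereas the mixture mice ran from below the lowest young mouse up to the old control range. Mean log2 signal was 13.18 ± 0.084 in young and 13.74 ± 0.050 in old control mice (mean ± SD, n = 5). Its difference with age was 0.57 (SE 0.11, adjusted p = 0.00172) by limma, or 1.48-fold. With the β-actin ratio added to the model it was 0.35 and did not pass (limma adjusted p = 0.0716).

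The other 3 tested Slc1a3 probe sets also pointed upward with age, below the threshold. The old minus young difference was 0.13 (SE 0.100) for 1452031_at, 0.17 (SE 0.095) for 1426340_at and 0.32 (SE 0.19) for 1426341_at, with limma adjusted p of 0.359, 0.215 and 0.237. For 1426341_at the first old control mouse read 1359, near the lowest young mouse, and the 4 others read 1811 to 3501. Without that mouse the 1426341_at difference was 0.50 and passed (limma adjusted p = 0.0385). With array medians set equal, which raised the median over all probe sets to 0.087, 1426340_at passed at 0.31 (limma adjusted p = 0.0453). The probe sets 1439072_at and 1440491_at were too dim to test and read 39.5 to 222.4 and 2.3 to 54.8 over all mice.

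Glul encodes glutamine synthetase, which makes glutamine from glutamate and ammonia. Its brightest probe set, 1426236_a_at, read 13221, 13614, 12526, 14262 and 10139.5 in young and 19964, 22029, 19033, 22562 and 24941 in old control mice. It read 24111, 20998, 19532, 19357 and 19162 with α-tocopherol and 19707, 16387, 19421, 17009 and 11987 with the mixture. Every old control and α-tocopherol mouse was above every young mouse, and 1 of the 5 mixture mice fell inside the young range. Mean log2 signal was 13.63 ± 0.19 in young and 14.40 ± 0.15 in old control mice (mean ± SD, n = 5). The age difference was 0.77 (SE 0.12, adjusted p = 0.000234) by limma, 1.7-fold, the largest age difference among the 27 probe sets.

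The other Glul probe set, 1426235_a_at, read 4325, 3665, 3968, 3147 and 3212 in young and 4080, 4186, 4065, 4535 and 4671 in old control mice. Only 2 of the old control mice exceeded the highest young mouse, the first. The difference with age was 0.24 (SE 0.096, adjusted p = 0.0813) by limma. It passed without the first young mouse, at 0.30 (limma adjusted p = 0.0349), with array medians set equal, at 0.38 (limma adjusted p = 0.0164), and with the β-actin covariate, at 0.39 (limma adjusted p = 0.0323). Setting array medians equal raised the median age difference over all probe sets to 0.087.

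Aqp4 encodes the water channel of astrocyte endfeet. The brightest of its probe sets, 1434449_at, read 2334, 1954, 1862, 1680.1 and 1677 in young and 2599.6, 2761, 2804, 2789 and 2812 in old control mice. It read 2968, 3127, 3122, 2812 and 2821 with α-tocopherol and 3625, 3399.5, 4483, 3209 and 2695 with the mixture. All 15 old mice were above all young mice, and the mixture group reached furthest up. Mean log2 signal was 10.89 ± 0.19 in young and 11.44 ± 0.047 in old control mice (mean ± SD, n = 5). Old minus young was 0.54 (SE 0.10, adjusted p = 0.00135) by limma, or 1.45-fold. The probe sets 1425382_a_at and 1447745_at differed by 0.23 (SE 0.15) and -0.0046 (SE 0.23), with limma adjusted p of 0.306 and 0.991. For 1425382_a_at the first old control mouse, at 888.5, was the lowest of all 20. Without it the difference was 0.38 and passed (limma adjusted p = 0.0473).

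Kcnj10 encodes Kir4.1, the inward rectifier through which astrocytes take up potassium, and had 1 probe set. It read 1619.6, 1825, 1635, 1791 and 1855 in young and 2752, 2020, 1783, 2175 and 1612 in old control mice. It read 2373, 2507, 3186, 2029 and 2032 with α-tocopherol and 2322, 2080.5, 3634, 2327 and 1972 with the mixture. The old control mice straddled the young range, with 3 of 5 above it, and all 10 supplemented mice lay above it. Supplemented mice were not tested against young mice, and the share of all probe sets with this pattern was not counted. Against old control neither α-tocopherol nor the mixture passed (limma adjusted p = 0.897 and 0.396). The old minus young difference was 0.22 (SE 0.15, adjusted p = 0.316) by limma, with a 95% interval of -0.091 to 0.53.

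Gja1 encodes connexin 43, the main gap junction protein of astrocytes. Its brightest probe set, 1437992_x_at, read 8039, 8088, 8225, 7438 and 8189 in young and 8779, 10134, 10511, 10568 and 9900.3 in old control mice. It read 11210.4, 10298, 12543, 11034 and 9634 with α-tocopherol and 9486, 10769.9, 11088, 9438 and 8509.9 with the mixture. All 15 old mice were above all young mice. Mean log2 signal was 12.97 ± 0.059 in young and 13.28 ± 0.11 in old control mice (mean ± SD, n = 5), and old minus young was 0.32 (SE 0.077, adjusted p = 0.00699) by limma, or 1.25-fold. With the β-actin covariate it was 0.27 and did not pass (limma adjusted p = 0.0865).

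A dimmer Gja1 probe set went the other way. The probe set 1438973_x_at read 1421, 1334, 1434, 1404 and 1451 in young and 1001, 1079.5, 1245, 1095 and 643.2 in old control mice. It read 1049.9, 1368, 918, 962.6 and 1104 with α-tocopherol and 832.8, 1159.7, 1158, 1208 and 941.9 with the mixture. Every old control mouse was below every young mouse, and 1 α-tocopherol mouse entered the young range. The age difference was -0.50 (SE 0.14, adjusted p = 0.0167) by limma, and with array medians set equal it was -0.37 and did not pass (limma adjusted p = 0.0691). This was the single member probe set that was lower with age.

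The other 4 Gja1 probe sets did not pass in either direction. The difference with age was -0.022 for 1415800_at, 0.20 for 1438945_x_at, 0.19 for 1438650_x_at and 0.12 for 1415801_at, with limma adjusted p from 0.0752 to 0.85. The smallest of these p belonged to 1438945_x_at, whose old control mice read 5240.3, 5629, 4775, 6106 and 5403 against 4648, 5014, 4559, 4501 and 4855 in young mice. It passed without the third old control mouse (0.24, limma adjusted p = 0.0375), without the fifth mixture mouse (0.20, limma adjusted p = 0.0337) and with array medians set equal (0.34, limma adjusted p = 0.0187). The last setting raised the median over all probe sets to 0.087. Probe set names ending in _x_at, carried by 5 of the 27, mark probes that may also match other transcripts.

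Gjb6 encodes connexin 30, the second astrocyte connexin, and had 1 probe set. It read 2073, 1979, 2041, 2141 and 1804 in young and 2108, 2580.1, 2872, 1956 and 2821 in old control mice. It read 2854, 2465, 3345, 3015 and 2774 with α-tocopherol and 2689.6, 2520, 3844, 2447 and 2284 with the mixture. Of the old control mice, 3 exceeded the young range, and all 10 supplemented mice did. The share of all probe sets with that pattern was not counted, and supplemented mice were not tested against young mice. Against old control neither α-tocopherol nor the mixture passed for Gjb6 (limma adjusted p = 0.883 and 0.539). Its difference with age was 0.28 (SE 0.12, adjusted p = 0.115) by limma. With array medians set equal it was 0.42 and passed (limma adjusted p = 0.024), while the median over all probe sets rose to 0.087.

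Atp1b2 encodes the β2 subunit of the sodium pump, which astrocytes carry. The brightest of its probe sets, 1435148_at, read 8327, 9015, 8615, 9164 and 7272 in young and 12526, 12362, 14073, 11407 and 11716 in old control mice. It read 11791, 11357, 12978, 10318 and 10556 with α-tocopherol and 9799, 11740.4, 11822, 8583 and 8753 with the mixture. All old control and α-tocopherol mice were above all young mice, and 3 of 5 mixture mice were. Mean log2 signal was 13.05 ± 0.13 in young and 13.60 ± 0.12 in old control mice (mean ± SD, n = 5), and old minus young was 0.55 (SE 0.093, adjusted p = 0.000543) by limma, or 1.46-fold.

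The other Atp1b2 probe set, 1422009_at, was also higher with age. It read 1748, 1941, 2040.3, 1630.5 and 1765 in young and 1713, 3165, 2543, 2449.9 and 3042 in old control mice. The first old control mouse lay inside the young range and the 4 others above it. The old minus young difference was 0.47 (SE 0.16, adjusted p = 0.0403) by limma, close to the threshold. The call was lost with no filter on dim signals (limma adjusted p = 0.0599) and without the intensity trend (limma adjusted p = 0.0605). It was also lost without young mouse 1, 2, 4 or 5, or old control mouse 2, 3, 4 or 5, with limma adjusted p from 0.0556 to 0.106 over these 8.

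Slc4a4 encodes NBCe1, which moves bicarbonate with sodium into or out of astrocytes. Its brightest probe set, 1434096_at, read 2762, 3236, 3196, 2737 and 3081 in young and 3062, 3542, 3569, 3278 and 3074 in old control mice. It read 3153, 3764, 4252, 3250.3 and 3315 with α-tocopherol and 3984, 3742, 4401, 3247 and 3767 with the mixture. Young and old control mice overlapped, and old minus young was 0.14 (SE 0.089, adjusted p = 0.288) by limma. All mixture mice lay above the highest young mouse, but against old control the mixture did not pass (limma adjusted p = 0.192). The share of all probe sets with mixture mice so placed was not counted. With array medians set equal the age difference was 0.28 and passed (limma adjusted p = 0.0322), while the median over all probe sets rose to 0.087.

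In 1 other Slc4a4 probe set, a single mouse set the result. The probe set 1452071_at read 2908, 3441, 3487, 3150 and 3334 in young and 4835, 2548, 2391, 2537 and 2006 in old control mice. The first old control mouse was the highest of all 20 and the 4 others were below all young mice. The age difference was -0.26 (SE 0.16, adjusted p = 0.28) by limma, and without that mouse it was -0.46 and passed (limma adjusted p = 0.00955). The probe sets 1426432_a_at and 1421225_a_at differed by 0.41 (SE 0.21) and -0.045 (SE 0.19), with limma adjusted p of 0.166 and 0.897. Fitted on these groups alone, 1426432_a_at passed (limma adjusted p = 0.0393). The probe set 1450169_at read 44.1 to 158.4 over all mice and was too dim to test.

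**Figure D2:**
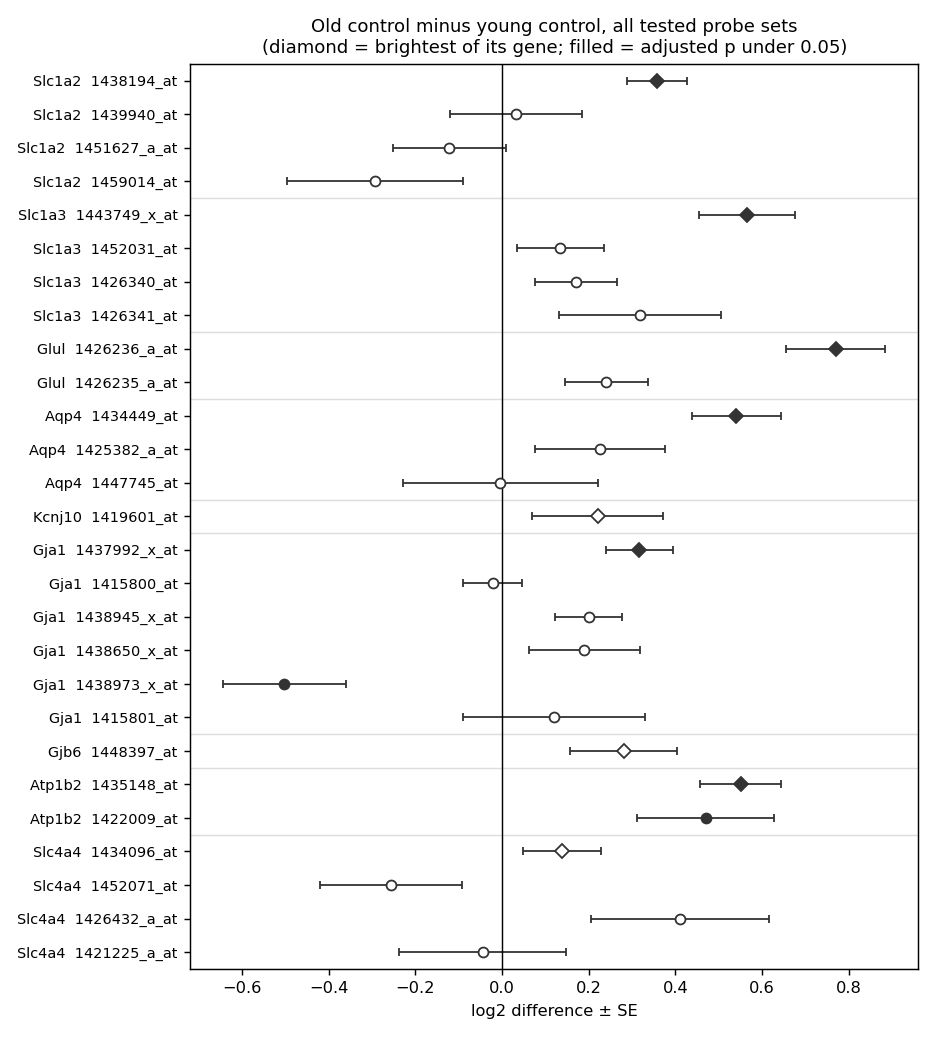
Old control minus young control for each of the 27 tested probe sets, in log2 units ± SE from limma, grouped by gene, with a diamond for the brightest probe set of each gene and circles for the others. The filled points are the 7 higher and 1 lower probe sets at an adjusted p under 0.05, from 0.77 for Glul 1426236_a_at to -0.50 for Gja1 1438973_x_at.

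Whether probe sets of a gene differed in their age difference was tested on the difference itself, by subtracting on each array the log2 signal of the other probe set from that of the brightest. The members formed 18 such pairs, and in 5 of them the brightest probe set moved up more with age by limma, adjusted over all 10102 pairs of the array. In 0 of the 18 did it move down more. Among all pairs, 14.4% were called in either direction and 10.2% with the brightest moving up more. The median over the 18 was 0.33, against 0.082 over all pairs.

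The widest gap was in Gja1, where 1437992_x_at moved up by 0.82 more than 1438973_x_at (SE 0.17, limma adjusted p = 0.00471). It also moved up by 0.34 more than 1415800_at (SE 0.10, limma adjusted p = 0.0327). In Slc1a2 the brightest probe set moved up by 0.65 more than 1459014_at (SE 0.20, limma adjusted p = 0.0384), and the gaps of 0.48 to 1451627_a_at (SE 0.17, limma adjusted p = 0.0625) and 0.33 to 1439940_at (SE 0.17, limma adjusted p = 0.201) did not pass. The Glul gap was 0.53 (SE 0.15, limma adjusted p = 0.0222), and that between Slc1a3 1443749_x_at and 1426340_at was 0.40 (SE 0.11, limma adjusted p = 0.026). For the pair of Atp1b2 probe sets the gap was 0.080, with a 95% interval of -0.32 to 0.48.

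These gaps depended on the fit. With the β-actin covariate, 1 of the 18 pairs was called, Gja1 1437992_x_at against 1438973_x_at, and 4.05% of all pairs. That pair was called in every fit tried, including each that left out 1 mouse. After quantile or cyclic loess normalization 3 pairs were called, without the Slc1a2 and Glul pairs, and 13% of all pairs. The count fell to 2 without young mouse 2 or 3, and to 3 without young mouse 1 or 5 or old control mouse 3, 4 or 5. In these fits without 1 mouse, 9.97% to 11.6% of all pairs were called. Over mice centred within groups, r between the probe sets of a pair ran from -0.24 to 0.65, given as a description over 20 arrays.

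**Figure D3:**
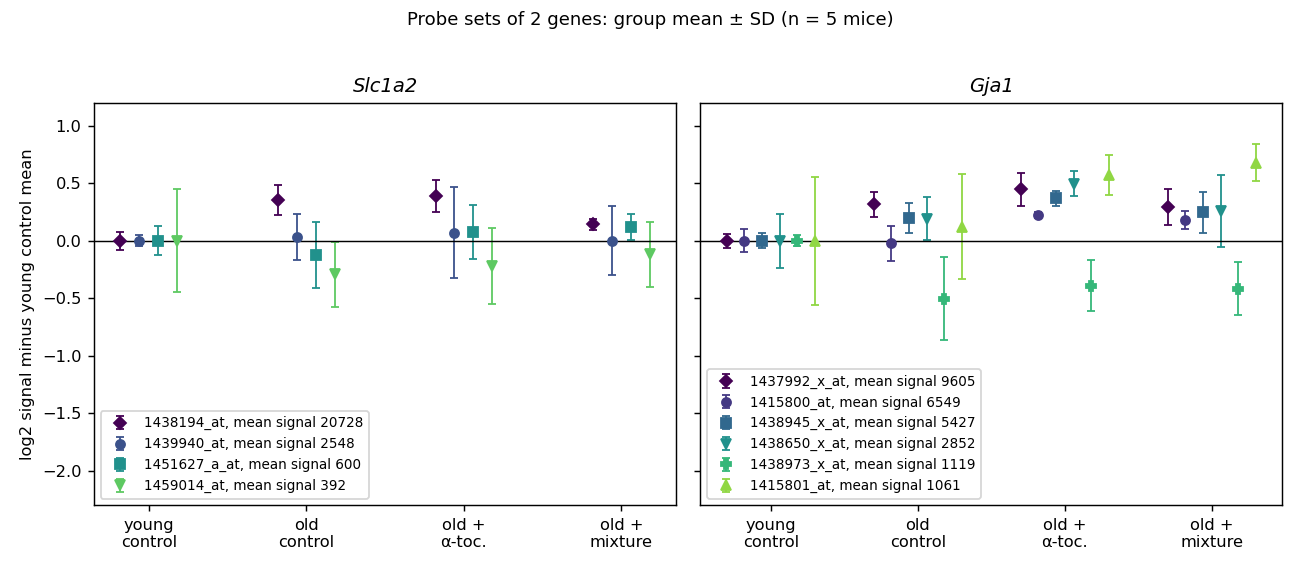
Log2 signal of the tested probe sets of Slc1a2 and of Gja1 in each group, minus the young control mean of the same probe set, as mean ± SD over 5 mice. In old control mice Slc1a2 1438194_at stands at 0.36 and 1459014_at at -0.29, and Gja1 1437992_x_at at 0.32 and 1438973_x_at at -0.50.

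With α-tocopherol, 0 of the 27 probe sets passed against old control by limma (adjusted p from 0.883 to 0.999). The background was 0% of all probe sets at the adjusted threshold and 5.45% at an unadjusted p under 0.05. At that unadjusted level 5 of the 27 differed, 4 of Gja1 and Aqp4 1447745_at, all higher. Of the 27, 23 pointed upward, with a median of 0.11 against 0.0067 over all probe sets. Among the 9 brightest 6 pointed upward and 3 downward, those of Atp1b2, Glul and Slc1a3. Over the 27, the 95% intervals ran from -0.61 to 0.94.

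The 4 Gja1 probe sets were 1415800_at, 1438945_x_at, 1438650_x_at and 1415801_at. The first of them, 1415800_at, read 7330.4, 7275, 7138, 7026 and 7067 with α-tocopherol against 5874, 6676, 5114, 6501 and 6135 in old control mice. All α-tocopherol mice were above all old control mice, which held for 0.437% of all probe sets. The difference was 0.25 (SE 0.068, limma adjusted p = 0.883). The brightest Gja1 probe set differed by 0.13 with a 95% interval of -0.029 to 0.29. The brightest Slc1a2, Slc1a3 and Glul probe sets differed by 0.034 (-0.11 to 0.18), -0.052 (-0.28 to 0.18) and -0.072 (-0.31 to 0.17), with 95% intervals in parentheses.

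With the mixture, probe sets of Slc1a2, Slc1a3, Glul, Gja1, Atp1b2 and Slc4a4 had point values in both directions. Against old control, 0 of the 27 probe sets passed by limma, where 3.59% of all probe sets did, and the smallest adjusted p was 0.0668. At an unadjusted p under 0.05, 10 of the 27 differed, against 20.1% of all probe sets. Both supplement comparisons share the same 5 old control mice, so a value that stands out in those mice enters both. Of the 27, 18 pointed upward and 9 downward. Among the brightest probe sets 4 pointed upward and 5 downward, with a median of -0.021, and after quantile normalization 6 pointed upward and 3 downward.

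Among the 9 brightest probe sets, those of Glul, Slc1a3, Atp1b2 and Slc1a2 had the lowest values. They also had the highest mean signals of the 9, 10454 to 20728 against 2125 to 9605 for the others. The part of signal level in these values was not tested. Mixture minus old control was -0.38 (SE 0.12, adjusted p = 0.0668) for Glul, -0.32 (SE 0.11, adjusted p = 0.104) for Slc1a3, -0.30 (SE 0.093, adjusted p = 0.068) for Atp1b2 and -0.21 (SE 0.069, adjusted p = 0.0812) for Slc1a2, by limma. For Slc1a2 all mixture mice were below all old control mice, which held for 3.03% of all probe sets. After quantile normalization these values shrank to -0.15 for Glul, -0.18 for Slc1a3 and -0.18 for Atp1b2, and for Slc1a2 the direction turned, to 0.046. After cyclic loess they were -0.20, -0.19, -0.18 and -0.023. With the β-actin covariate, Slc1a3 stood at -0.053, Atp1b2 at -0.18, Glul at -0.29 and Slc1a2 at -0.22, with limma adjusted p from 0.81 to 0.984.

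The brightest probe sets of Aqp4, Slc4a4, Kcnj10 and Gjb6 and 14 of the 18 other probe sets pointed the other way. Dimmer probe sets of the genes just named were among them, with Glul 1426235_a_at at 0.19, Slc1a3 1426341_at at 0.32 and Slc1a2 1451627_a_at at 0.24 (limma adjusted p from 0.264 to 0.357). Slc4a4 1426432_a_at pointed downward, at -0.28 (limma adjusted p = 0.491). Tested as within-array pairs, the brightest and the other probe sets differed for the mixture in 0 of the 18 pairs by limma, against 0.208% of all pairs. The smallest adjusted p were 0.0651 for Glul, with a gap of -0.57 (SE 0.15), and 0.0689 for Atp1b2, with a gap of -0.68 (SE 0.19).

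Mixture minus old control was 0.32 (SE 0.10, adjusted p = 0.0812) for Aqp4 1434449_at and 0.21 (SE 0.089, adjusted p = 0.192) for Slc4a4 1434096_at by limma. With the β-actin covariate these were 0.30 and 0.12. The dim Aqp4 probe set 1447745_at had the largest value, 0.73 (SE 0.23, adjusted p = 0.0701) by limma, with readings of 722, 512.5, 531.1, 784.3 and 748.9 against 351.8, 337.1, 477.8, 268.2 and 563.8 in old control mice. For Gja1, 1415801_at read 1431, 1330.1, 1247, 1178 and 1563 against 525.8, 1008, 1111, 881.9 and 1175, so all mixture mice were higher, and the difference was 0.56 (SE 0.21, adjusted p = 0.133) by limma. All mixture mice were above all old control mice in 2.69% of all probe sets. Gja1 1415800_at differed by 0.20 (limma adjusted p = 0.0939) and Atp1b2 1422009_at by 0.38 (limma adjusted p = 0.172), opposite in sign to the brighter Atp1b2 probe set. Kcnj10 and Gjb6 differed by 0.24 (-0.072 to 0.55) and 0.15 (-0.11 to 0.41), with 95% intervals in parentheses.

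Leaving out single mice took some of these values past the threshold. Without mixture mouse 1, Glul passed at -0.44 (limma adjusted p = 0.0475) and Atp1b2 1422009_at at 0.54 (limma adjusted p = 0.0412). Without mixture mouse 3, Glul passed at -0.43 (limma adjusted p = 0.0485) and Atp1b2 1435148_at at -0.36 (limma adjusted p = 0.0377), and without mixture mouse 2 the latter passed at -0.36 (limma adjusted p = 0.0453). Without mixture mouse 5, Aqp4 1434449_at passed at 0.41 (limma adjusted p = 0.0442). Without α-tocopherol mouse 5, which enters through the shared spread, Slc1a2 passed at -0.21 (limma adjusted p = 0.0479).

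**Figure D4:**
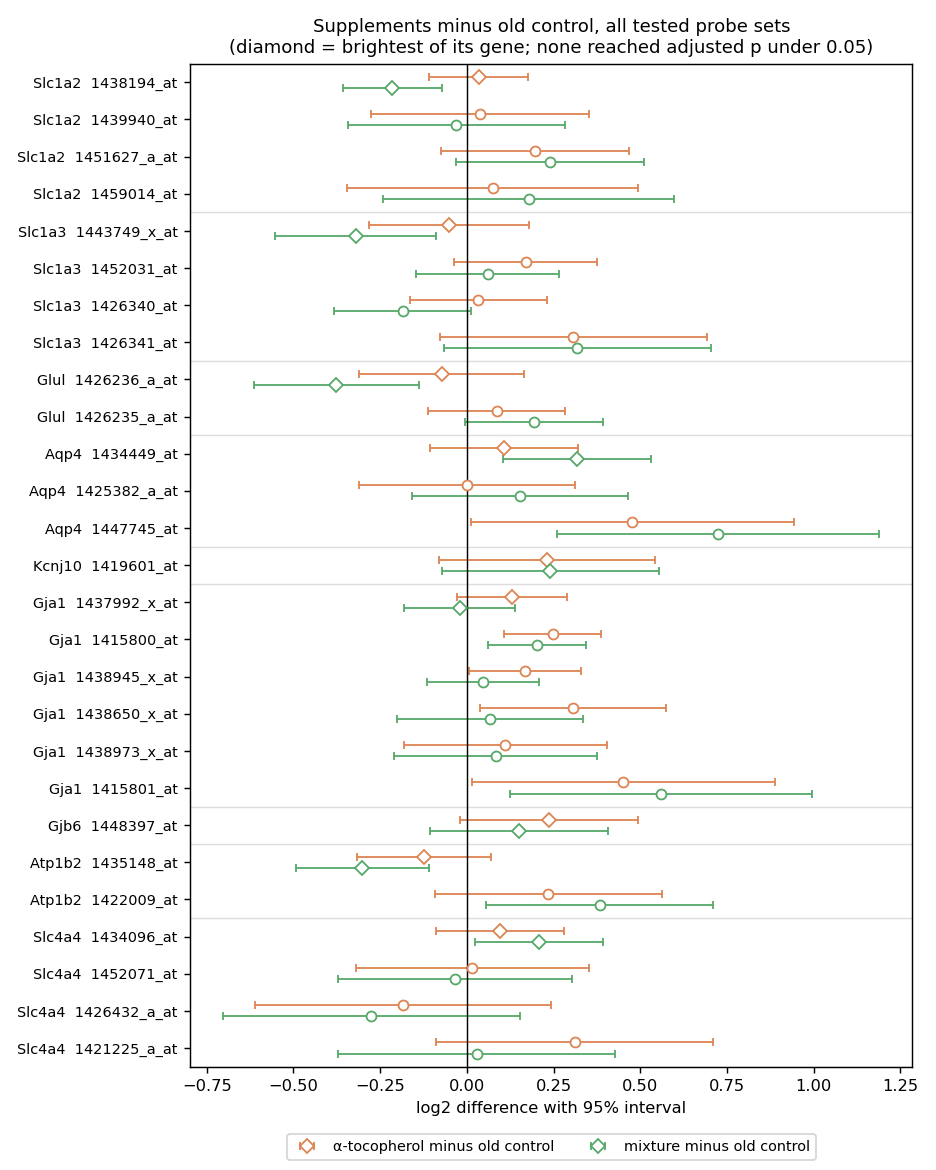
Each supplement minus old control for the 27 tested probe sets, in log2 units with 95% intervals from limma, with α-tocopherol and the mixture as separate orange and green points, diamonds for the brightest probe sets, drawn against the same 5 old control mice. Mixture points run from -0.38 for Glul 1426236_a_at to 0.73 for Aqp4 1447745_at, and 0 of the 27 pass for either supplement at an adjusted p under 0.05.

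The supplements themselves form 1 pair, α-tocopherol at 1000 mg/kg against 500 mg/kg each of α- and γ-tocopherol, so the total was matched and the form differed. Mixture minus α-tocopherol passed for 0 of the 27 probe sets by limma, as for 0% of all probe sets, and 4 of the 27 had an unadjusted p under 0.05, against 8.39% of all. All 4 were lower with the mixture. For Slc1a2 1438194_at the difference was -0.25 with a 95% interval of -0.39 to -0.10 (limma adjusted p = 0.24). The mixture mice read 18955 to 20454 and 4 of the 5 α-tocopherol mice read 23661 to 25222, while the fifth read 19645. Without that mouse the difference was -0.31 and passed (limma adjusted p = 0.0431).

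The other 3 were Glul 1426236_a_at at -0.30 (-0.54 to -0.066), Slc1a3 1443749_x_at at -0.27 (-0.50 to -0.039) and Slc1a3 1426340_at at -0.22 (-0.41 to -0.021), with 95% intervals in parentheses. For Aqp4 1434449_at the difference was 0.21 (-0.0028 to 0.42) and for Kcnj10 0.0088 (-0.30 to 0.32). Over the 27 probe sets the 95% intervals ran from -0.68 to 0.72, which leaves room for differences of that size in either direction.

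Further genes of glutamate, glutamine and GABA handling included several that were higher in old than in young control mice. Of 18 tested genes of a list of 20, each by its brightest probe set, 6 were higher and 0 lower by limma, against 11.7% and 9.3% of all genes, with a median of 0.19 against -0.022 over all genes. Pyruvate carboxylase Pcx, which supplies carbon for new glutamate, differed by 0.68 (SE 0.10, limma adjusted p = 0.000236). The glutamate receptor gene Grm3 differed by 0.48 (SE 0.079, limma adjusted p = 0.000464) and the glutamine transporter gene Slc38a3 by 0.42 (SE 0.070, limma adjusted p = 0.000509). With either supplement 0 of the 18 passed. The smallest p for the mixture belonged to Got2 (-0.21), Slc7a11 (0.34) and Slc1a1 (-0.18), with limma adjusted p of 0.108, 0.142 and 0.21.

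Of a list of 12 genes of water channel partners and endfoot anchoring, which also held other aquaporins, 9 were tested. With age 1 was higher and 4 lower by limma, against 11.7% and 9.3% of all genes, with a median of -0.14. The higher gene was Mlc1, which encodes a membrane protein of perivascular astrocyte processes (0.38, SE 0.11, limma adjusted p = 0.0231). Agrin, Agrn, differed by -0.43 (SE 0.12, limma adjusted p = 0.0117) and dystrophin, Dmd, by -0.48 (SE 0.14, limma adjusted p = 0.0214). The other lower genes, named after their values were seen, were α-dystrobrevin, Dtna, at -0.33 (SE 0.10, limma adjusted p = 0.0261) and β1-syntrophin, Sntb1, at -0.58 (SE 0.19, limma adjusted p = 0.0359). With either supplement 0 of the 9 passed. For the mixture, Hepacam, Dag1 and Sntb1 had values of 0.28, -0.26 and 0.26, with limma adjusted p of 0.116, 0.422 and 0.479.

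Among 8 tested of 9 other gap junction and hemichannel genes, 1 was higher and 0 lower with age by limma, with a median of -0.12. The share higher was near the 11.7% of all genes. It was Gjb1, the connexin 32 gene of oligodendrocytes, at 0.61 (SE 0.18, limma adjusted p = 0.02). Gjb2 and Gjc1 followed by p, at -0.22 and -0.20, with limma adjusted p of 0.282 and 0.295. With either supplement 0 of the 8 passed. For the mixture, Gjb2, Tjp1 and Panx2 had values of 0.42, 0.18 and 0.30, with limma adjusted p of 0.086, 0.0998 and 0.123.

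Among 22 tested of 28 other genes of potassium, sodium pump, chloride and bicarbonate transport, 3 were higher and 3 lower with age by limma, with a median of 0.051. These shares were near the 11.7% and 9.3% of all genes. Fxyd1, a regulator of the sodium pump, differed by 0.64 (SE 0.13, limma adjusted p = 0.00191), and Slc12a2, the sodium-potassium-chloride cotransporter NKCC1, by 0.30 (SE 0.088, limma adjusted p = 0.0192). Carbonic anhydrase 4, Car4, differed by -0.45 (SE 0.089, limma adjusted p = 0.00172). The others, named after their values were seen, were Atp1b1 at 0.24, Clcn2 at -0.38 and Fxyd7 at -0.37, with limma adjusted p of 0.0193, 0.0465 and 0.0282. With the mixture, Atp1b1, the β1 subunit of the sodium pump, was lower than in old control mice by limma (-0.30, SE 0.070, adjusted p = 0.0225), and 0 of the 22 passed with α-tocopherol. That was 1 of the 22, where 3.59% of all probe sets were called for the mixture. With the β-actin covariate 0 of all probe sets were called for the mixture. Slc8a1 and Kcnj16 followed by p, at 0.32 and -0.44, with limma adjusted p of 0.07 and 0.189.

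Other markers moved with the age comparison and are given beside it. Of 20 astrocyte identity genes outside the members, 7 were higher with age and 0 lower by limma, with a median of 0.17. Among all genes, 11.7% were higher and 9.3% lower. The summed signal of the 20 was 91084 to 99993 in young and 109814 to 122996 in old control mice. It was 110566 to 122869 with α-tocopherol and 97359 to 123106 with the mixture. Of 7 tested reactive astrocyte genes, 6 were higher and 0 lower, and their summed signal rose without overlap from 4712 to 5377 in young to 11945 to 16846 in old control mice.

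The counts below stand against 11.7% of all genes that were higher with age and 9.3% that were lower. Of other cell types, 7 of 12 oligodendrocyte, 11 of 13 microglial and 6 of 12 neuronal markers were higher with age by limma, and 0, 1 and 0 lower. Their summed signals did not overlap between young and old control mice: 72040 to 85924 against 93410 to 110889 for oligodendrocytes, 19444 to 21005 against 31054 to 35010 for microglia and 172593 to 185243 against 193201 to 231932 for neurons. Of 12 endothelial and pericyte markers 3 were higher and 2 lower, of 11 meningeal markers 0 in either direction, and of 8 choroid plexus markers 0 higher and 1, Kl, lower. The part of these cell types in the members' age differences was not tested.

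With the mixture, 5 of 12 neuronal markers, Rbfox3, Snap25, Syt1, Tubb3 and Syp, were lower than in old control mice by limma. Among all probe sets, 970 or 3.59% were called for the mixture in either direction. That count was 133 after quantile normalization and 0 with the β-actin covariate. The summed neuronal signal was 166029 to 188888 with the mixture, below all old control mice, and 186923 to 225902 with α-tocopherol. Among the other lists, Mbp of oligodendrocytes was lower and P2ry12 of microglia, Islr of meninges and Kl of choroid plexus were higher with the mixture. With α-tocopherol 0 genes of these lists passed. The part of these markers in the members' mixture values was not tested.

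Averaged over the brightest probe sets of the 9 genes, each centred on its own mean over 20 mice, the young control mice ran from -0.39 to -0.26 and the old control mice from 0.065 to 0.12. The α-tocopherol mice ran from 0.0067 to 0.33 and the mixture mice from -0.19 to 0.36. The old control mice were closely grouped, and the mixture mice were the most spread, with an SD of 0.20 against 0.026 (n = 5 each). All old mice were above all young mice on this average.

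Within groups, the 9 genes varied together to different degrees. Over 20 arrays centred within groups, Pearson's r of the 36 pairs ran from -0.068 for Glul with Slc4a4 to 0.72 for Slc1a3 with Gja1. Slc1a3 also went with Glul (0.69), Atp1b2 (0.67) and Aqp4 (0.66), whereas Slc1a2 had r of 0.33 or less with each of the other 8 genes. The arrays share their scaling, and these values are given as a description.

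Outside the members, the genes most like this average over the 20 arrays by Pearson's r were Pip4k2a (0.965), Pkp4 (0.965), Tcn2 (0.957), Flywch1 (0.947) and Plekhb1 (0.941). After centring within groups they were Nf2 (0.915), Pkp4 (0.912), Phgdh (0.888), Rplp2 (0.883) and Mertk (0.88). Pkp4 appeared in both. These r describe the same 20 arrays, and the first set includes the age difference.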

How the data were processed

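Per the labels' protocols, poly(A) RNA from frozen neocortex was primed with oligo-dT and the labelled cRNA was hybridised to Affymetrix arrays. The deposited values are linear signal intensities; the submitters' processing notes name GCOS without a version, and a trimmed mean of 1000 in every column (2% trimmed at each end) shows scaling before deposit. Not given in the sources used here are the background step and how probes were summarised. Scaling hides a shift common to all RNA.

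Of 45037 non-control probe sets, 34945 had 1 gene symbol, 932 several and 9160 none. The brightest 60% by mean log2(signal + 16), 27022, were tested with limma 3.58.1 (R 4.3.3; lmFit, eBayes with intensity trend, two-sided) over all 20 arrays, with Benjamini-Hochberg adjustment per comparison and a threshold of 0.05. A fold on this scale understates changes of dim probe sets. SE and 95% intervals are those of the contrasts, and precision is limited by 5 mice per group. No arrays were identical, and none were left out. The scripts were tested on simulated data.

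Named were all member probe sets with 1 symbol, and from each list the 3 smallest p for age and for the mixture. Members and lists were chosen with earlier results of these data known. Alternatives were other normalizations, pseudocounts, filters, fits, a replicate block, a β-actin covariate and leaving out each mouse.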

Additional observations from a re-analysis of the deposited data

Results flagged for a closer look

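Within groups of 5 mice, 7 of 108 groups of member probe set values held a mouse far from the others, by a gap above 0.71 of the group's range, which chance gives in about 1 group in 20. In old control mouse 1, Slc4a4 1452071_at read 4835.2 against 2548 in the next mouse, and Aqp4 1434449_at read 2599.6 against 2760.6. In old control mouse 3, Slc1a3 1443749_x_at read 14533.8 against 13632. Among young control mice, Gja1 1437992_x_at was low in mouse 4, at 7438.3 against 8038.9, and Slc4a4 1426432_a_at was high in mouse 2, at 1200.8 against 923.8. Slc1a2 1438194_at was low in α-tocopherol mouse 5, at 19644.7 against 23660.7. Kcnj10 1419601_at was high in mixture mouse 3, at 3633.9 against 2327.1.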

How the results depend on the processing

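The total age count over the 27 probe sets (8 as reported) moved by at most 1.5 times under every alternative run and without any 1 mouse. Its split, 7 higher and 1 lower, became 12 and 0 with array medians set equal and 9 and 2 without old control mouse 1. Over all probe sets the splits in these fits were 4699 and 863, and 2323 and 2362. No named difference that was called changed sign. Mixture minus old control, 0 of 27 as reported, gave 1 called probe set after cyclic loess (Gja1 1415800_at, 0.28), 1 with array medians set equal (Atp1b2 1435148_at, -0.38), 1 with the top 40% of probe sets tested (Glul 1426236_a_at, -0.38) and 0 to 2 without 1 mouse. Over all probe sets, these mixture fits called 177, 956, 1301 of 18015 and 280 to 1109, against 970 as reported. Mixture minus α-tocopherol gave 0 to 1 without 1 mouse, and 0 to 64 over all probe sets. Probe set pairs that differed with age, 5 as reported, were 3 after quantile normalization, 3 after cyclic loess, 1 with the β-actin covariate and 2 to 6 without 1 mouse. The shares of all pairs called were 14.4% as reported, 13% after either normalization, 4.05% with the covariate and 9.97% to 16.5% without 1 mouse. The cause was not tested.

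Mice that share a replicate number were not paired by it: r of their deviations ran from -0.11 to 0.13 for old and young controls and from -0.11 to 0.20 for the other comparisons. With the replicate number as a block, 3 probe sets passed for mixture minus old control (Atp1b2 1435148_at and 1422009_at and Slc1a3 1443749_x_at). For age, 6 pairs passed in that fit, with 14.9% of all pairs called. All probe sets called went from 5097 to 5409 for age and from 970 to 1338 for the mixture. Over all probe sets, setting array medians equal moved the share of age calls that were higher from 49.4% to 84.5% and the median difference from -0.048 to 0.087. It moved the share of mixture calls that were higher from 36.1% to 9.83%. Mixture calls over all probe sets were 133 after quantile normalization, 177 after cyclic loess, 492 without the filter, 358 without the intensity trend, 476 on the groups compared alone, 0 with the β-actin covariate and 280 to 1109 without 1 mouse. Age calls were 2028 with the β-actin covariate.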
